A study of Homo sapiens with 14 samples.

Results

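The 10 genes described are secreted regulators of WNT signalling, 7 antagonists and 3 ligands, followed through the formation of human cartilage pellets. The antagonists were the frizzled-related genes FRZB (also called SFRP3), SFRP1, SFRP2 and SFRP4, the Dickkopf genes DKK1 and DKK3, and WIF1. The ligands were WNT5A, WNT5B and WNT11. Members were taken by gene symbol, and each of the 10 matched 1 of the 60587 gene rows. Pellets were grown from WA01, an established human embryonic stem cell line, in chondrogenic medium, and RNA from entire pellets was sequenced. There were 4 libraries of day 21 and 5 each of days 30 and 45. All pellets came from this 1 line and medium, with no genetic change and no untreated group in the labels, so the comparison was between days of culture. The labels do not say whether the libraries of a day came from separate cultures, so p-values measure the spread between these libraries, which may be technical.

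WNT proteins bind frizzled receptors. With the co-receptors LRP5 or LRP6 they stabilise beta-catenin, which acts with TCF and LEF factors on target genes. WNT5A, WNT5B and WNT11 act largely without beta-catenin, through receptors such as ROR2 and the planar polarity genes, and in the mouse growth plate Wnt5a and Wnt5b control how chondrocytes divide and mature. Secreted frizzled-related proteins and WIF1 bind WNT proteins outside the cell, DKK1 blocks LRP5 and LRP6, and DKK3 is a divergent family member whose effect on WNT signalling is less settled. FRZB was first isolated from cartilage.

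Of the 9 members that passed the filter on low counts, 3 rose and 4 fell at day 45 against day 21, and 2 were not called. By edgeR on counts, DKK1 and FRZB were each over 10-fold higher at day 45, and WNT5B was 3.045-fold higher. WIF1 and SFRP2 were 5.534-fold and 5.245-fold lower, while SFRP1 and DKK3 were 1.525-fold and 1.422-fold lower. At day 21 DKK1 had only 23 to 55 counts per library and FRZB 20 to 44. On the deposited TPM scale the rises were smaller: DKK1 averaged 2.34 at day 21 and 16.5 at day 45, FRZB 0.685 and 5.71, and WNT5B 15.5 and 33.9. Calls were frequent in these data, since edgeR's quasi-likelihood test called 57.7% of the 17838 genes tested in that comparison (27.1% up, 30.5% down). All 7 called members had no overlap between the libraries of the 2 days, as did 51.5% of all genes. The median log2 fold change of the 9 members was -0.06 and that of all genes tested was -0.05.

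The promoters of the genes with the largest rises (DKK1, FRZB) and falls (SFRP2, WIF1) are shown as the 250 bases before the RefSeq transcription start, 5′ to 3′ on the strand of the gene, build GRCh38.p14. They lie at chr10:52314031-52314280 (plus strand) for DKK1, chr2:182866638-182866887 (minus) for FRZB, chr4:153789084-153789333 (minus) for SFRP2 and chr12:65121306-65121555 (minus) for WIF1. By the GENCODE 29 gene coordinates given below, the FRZB and WIF1 stretches lie wholly inside the gene. The SFRP2 stretch lies partly inside its gene, and the DKK1 stretch lies before its gene. Capitals mark the matches found on either strand to the TCF/LEF core (CTTTGA or CTTTGT), the CCAAT box (CCAAT) and the TATA box (TATAAA).
DKK1: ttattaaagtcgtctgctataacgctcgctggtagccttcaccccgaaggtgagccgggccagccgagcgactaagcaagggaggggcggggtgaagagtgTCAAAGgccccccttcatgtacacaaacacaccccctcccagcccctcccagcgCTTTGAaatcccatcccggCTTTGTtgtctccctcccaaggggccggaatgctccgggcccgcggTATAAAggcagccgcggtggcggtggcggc
FRZB: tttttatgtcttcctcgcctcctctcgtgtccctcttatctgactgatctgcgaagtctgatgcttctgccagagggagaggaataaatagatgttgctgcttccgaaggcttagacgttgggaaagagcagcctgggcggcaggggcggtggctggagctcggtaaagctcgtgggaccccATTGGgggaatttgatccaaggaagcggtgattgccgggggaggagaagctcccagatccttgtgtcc
SFRP2: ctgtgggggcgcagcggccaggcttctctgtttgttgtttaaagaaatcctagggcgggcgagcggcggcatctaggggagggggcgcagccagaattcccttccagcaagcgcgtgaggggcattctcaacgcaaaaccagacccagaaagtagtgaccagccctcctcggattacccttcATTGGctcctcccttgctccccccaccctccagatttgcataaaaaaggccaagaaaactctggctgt
WIF1: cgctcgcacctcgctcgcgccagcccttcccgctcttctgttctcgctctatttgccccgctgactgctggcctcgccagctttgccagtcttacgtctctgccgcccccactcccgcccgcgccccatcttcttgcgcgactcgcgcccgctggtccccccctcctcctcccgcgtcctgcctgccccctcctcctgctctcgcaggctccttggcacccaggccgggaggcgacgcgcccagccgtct

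The DKK1 promoter held 3 TCF/LEF cores, the first on the opposite strand, at 149 to 144, 95 to 90 and 76 to 71 bases before the start, and a TATA box at 30 to 25. Among 35116 RefSeq promoters, 22.8% held a TCF/LEF core, 0.584% held 3 or more, and 10.7% held a match to the last motif. FRZB and SFRP2, which moved in opposite directions at days 30 and 45 against day 21, both held a CCAAT box at 68 to 64 bases before the start, on the opposite strand. That motif was in 32.0% of all promoters. The WIF1 promoter held none of the 3 motifs and was the richest of the 4 in CpG, with 27, against 18 for DKK1 and 11 each for FRZB and SFRP2 (median of all promoters 11). The other promoters examined, those of SFRP4, WNT5A and WNT5B, held 1 match. It was to the TATA box, on the opposite strand, at 78 to 73 bases before the start in 1 of the WNT5B promoters. A match is a description of the letters and shows no binding.

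Libraries held 18183776 to 33660704 expected counts. Markers of chondrocytes (COL2A1, ACAN and 7 others) were read beside the label. Their summed level, in CPM (the library's counts scaled to a common size), was 39800 to 52350 at day 21. It was 101400 to 236800 at day 30 and 193700 to 310000 at day 45. Pluripotency markers summed to at most 16.78 CPM in any library. The marker lists were chosen with earlier results of these data known, so they are no independent check. Day 30 libraries split by transcript length: the correlation across genes between effective length and the log2 level relative to the mean of all libraries was -0.428 to -0.518 (Spearman) in replicates 3 to 5 and -0.012 and -0.073 in replicates 1 and 2, against 0.119 to 0.255 at days 21 and 45. The library titled day 45 replicate 1 carries a treatment label of 30 days and was used at day 45, as titled. Levels below are CPM after TMM normalisation, and TPM, which divides by transcript length, is used where genes are compared with each other. In whole pellets, fewer cells that express a gene and less RNA per cell cannot be told apart.

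**Figure D1:**
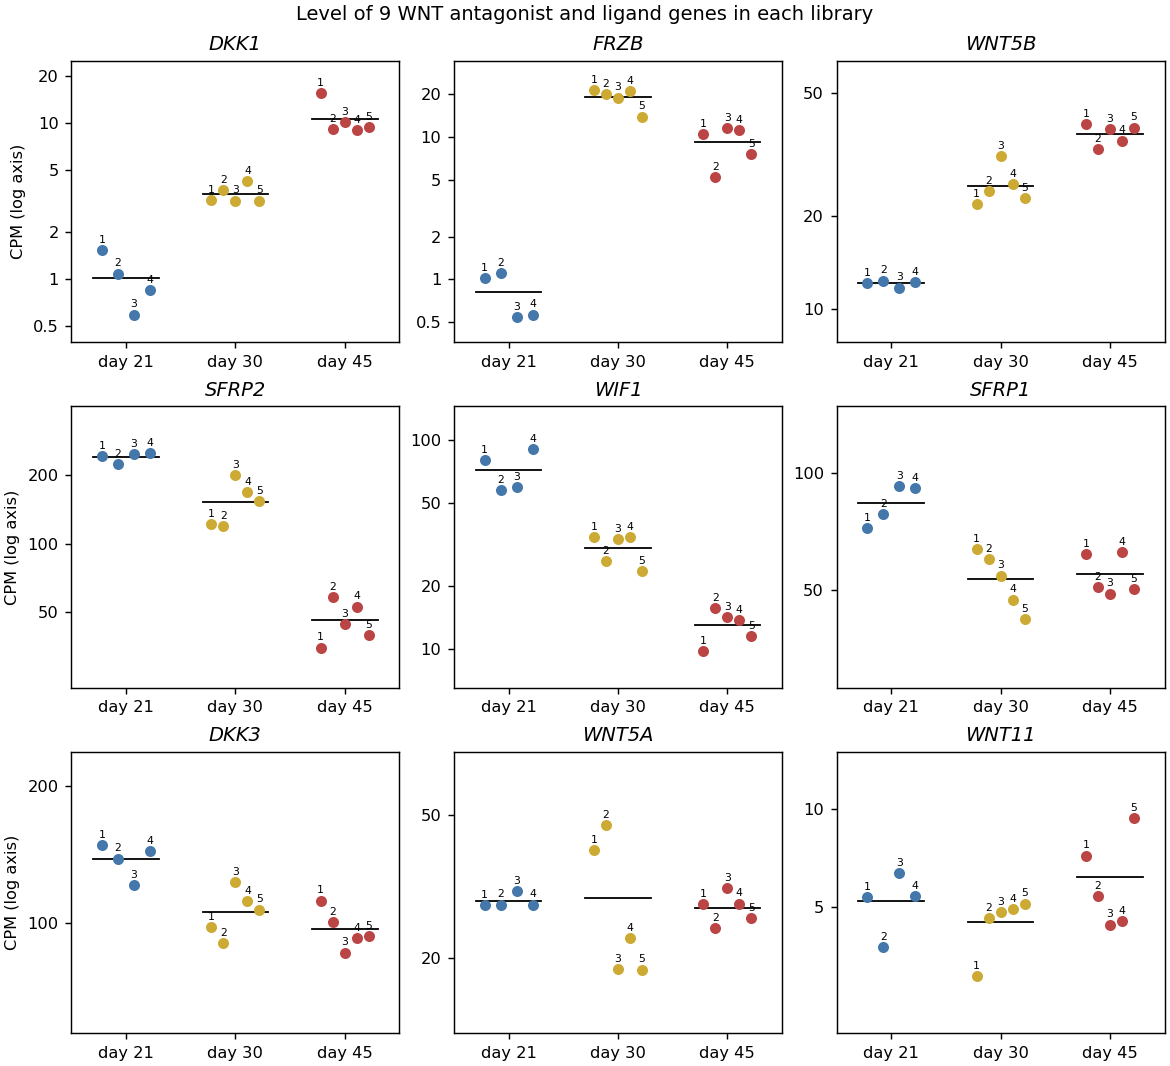
CPM (log axis) of the 9 genes that passed the low-count filter, 1 point per library numbered by replicate, with a line at the mean of each day. DKK1 and WNT5B are highest at day 45, FRZB peaks at day 30, SFRP2 and WIF1 are lowest at day 45, and WNT5A splits within day 30 between replicates 1 and 2 (39.8 and 46.7 CPM) and replicates 3 to 5 (18.5 to 22.7 CPM).

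DKK1, the LRP5 and LRP6 blocker (ENSG00000107984; GRCh38, chr10:52314296-52318042, plus strand), was low at day 21 and increased in each interval. It had 1.53, 1.09, 0.595 and 0.85 CPM at day 21, then 3.20, 3.71, 3.18, 4.22 and 3.19 CPM at day 30, and 15.5, 9.15, 10.1, 9.01 and 9.43 CPM at day 45. No library of one day overlapped those of another. The log2 fold change was 3.39 ± 0.24 (SE) for day 45 against day 21 (edgeR adjusted p = 2.745e-09), and 1.19% of genes tested rose more. DKK1 rose 3.437-fold at day 30 against day 21 and 3.042-fold at day 45 against day 30 (edgeR adjusted p = 1.003e-05 and 6.229e-06). The change in the later interval minus that in the earlier was -0.18 ± 0.37 (SE, edgeR adjusted p = 0.7085). The later interval (day 30 to 45) is longer than the earlier (day 21 to 30). This difference, here and below, compares total changes and not rates per day. Day 45 replicate 1 was the highest library. Without it the log2 fold change at day 45 against day 30 was 1.43, and with it placed at day 30, as its treatment label reads, it was 0.77 and no longer called (edgeR adjusted p = 0.144).

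FRZB (ENSG00000162998; chr2:182833275-182867162, minus strand) had a peak at day 30. Its level was 1.03, 1.11, 0.543 and 0.567 CPM at day 21, 21.5, 20.2, 19.03, 21.2 and 13.96 CPM at day 30, and 10.5, 5.25, 11.5, 11.2 and 7.62 CPM at day 45. The 3 days did not overlap. FRZB rose 23.39-fold at day 30 against day 21 (log2 fold change 4.55 ± 0.28, SE; edgeR adjusted p = 2.416e-09), a rise that only 0.235% of genes tested exceeded. It then fell 2.077-fold at day 45 against day 30 (-1.05 ± 0.21, SE; edgeR adjusted p = 0.0003995) and stayed 11.26-fold above day 21 (3.49 ± 0.27, SE; edgeR adjusted p = 1.001e-08). The later change was lower than the earlier by 5.60 on the log2 scale (-5.60 ± 0.38, SE; edgeR adjusted p = 2.982e-08), the largest such difference among the 9 members. On the log2(TPM + 1) scale, which compresses low values, the changes were 1.97 for day 45 against day 21 and 2.92 for day 30 against day 21.

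SFRP2 (ENSG00000145423; chr4:153780592-153789120, minus strand) was the most abundant member at day 21. Its level was 242, 223, 248 and 251 CPM at day 21, 122, 119, 199, 169 and 154 CPM at day 30, and 34.9, 58.2, 44.1, 52.8 and 39.6 CPM at day 45. The days did not overlap, and within day 30 replicates 3 to 5 lay above replicates 1 and 2. SFRP2 fell at day 45 against day 21 by 2.39 ± 0.16 on the log2 scale (SE; edgeR adjusted p = 1.33e-09), a fall that 3.85% of genes exceeded. It fell 1.577-fold at day 30 against day 21 and 3.326-fold at day 45 against day 30 (edgeR adjusted p = 0.001839 and 1.485e-07). Without day 30 replicates 3 to 5 the log2 change at day 30 against day 21 was -1.003, in place of -0.66.

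WIF1, the WNT inhibitory factor (ENSG00000156076; chr12:65050626-65121566, minus strand), fell in both intervals. It had 80.6, 58.0, 59.9 and 90.7 CPM at day 21, 34.4, 26.4, 33.7, 34.4 and 23.6 CPM at day 30, and 9.85, 15.8, 14.2, 13.8 and 11.6 CPM at day 45. All libraries of a later day lay below all of an earlier one. The fall was 2.369-fold at day 30 against day 21 and 2.336-fold at day 45 against day 30 (edgeR adjusted p = 5.777e-06 and 7.329e-06). The difference between the intervals was 0.02 ± 0.27 (SE, log2; edgeR adjusted p = 0.9558). WIF1 changed on the log2(TPM + 1) scale by -1.65 at day 30 against day 21 and by -1.003 at day 45 against day 30, and there the difference was called (0.64, limma adjusted p = 0.0436). Over day 45 against day 21 the log2 fold change was -2.47 ± 0.17 (SE; edgeR adjusted p = 1.346e-09).

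Markers of tendon (SCX, TNMD and 4 others) moved with SFRP2 and WIF1: their summed level was 745.1 to 1008 CPM at day 21, 318.1 to 462.3 CPM at day 30, then 172.6 to 262.2 CPM at day 45, and 5 of the 6 fell at day 45 against day 21 (median log2 fold change -1.88). Neuron markers summed to 185.8 to 199.3, 122.5 to 169.5 and 107.7 to 127.4 CPM at days 21, 30 and 45, with 3 of the 8 below 1 CPM in every library, and 4 of the 5 tested fell at day 45 against day 21 (median -2.88). Osteoblast markers summed to 146.2 to 335.2, 146.3 to 218.2 and 74.52 to 110.8 CPM, and 4 of the 6 tested fell and 1 rose. Schwann cell and melanocyte markers, 3 of 8 below 1 CPM throughout, summed to 105.9 to 151.4, 149.2 to 283.2 and 39.73 to 66.36 CPM, and 4 of the 7 tested fell and 2 rose. Perichondrium and fibroblast markers (10 genes) summed to 30300 to 32250 CPM at day 21. They summed to 23560 to 33410 CPM at day 30 and 28530 to 37920 CPM at day 45, and 2 rose and 3 fell at day 45 against day 21. Endothelium markers summed to 23.96 to 32.42, 6.407 to 15.87 and 8.52 to 11.79 CPM. Of the 2 tested, 1 rose and 1 fell. Skeletal muscle markers summed to 12.83 to 17.76, 15 to 23.07 and 17.85 to 32.97 CPM. Of the 4 tested, 1 rose and 2 fell. With DKK1, markers of hypertrophic chondrocytes (COL10A1, IHH and 5 others) went up: they summed to 82.79 to 97.56, 368.4 to 485.5 and 1657 to 4200 CPM at days 21, 30 and 45, and each of the 6 that passed the filter rose at day 45 against day 21. SP7 and IBSP were on both this list and the osteoblast list, and the 1 that passed the filter is the osteoblast marker that rose. Like FRZB, the joint and superficial zone markers (PRG4, GDF5 and 4 others) were highest at day 30: they summed to 476.9 to 577.3, 737 to 1130 and 445.8 to 685.5 CPM at days 21, 30 and 45, and 4 of the 6 rose and 1 fell at day 30 against day 21, while 1 rose and 3 fell at day 45 against day 30. Of the 9 chondrocyte markers, all rose at day 30 against day 21, and 1 rose and 4 fell at day 45 against day 30. The later change was lower than the earlier, as for FRZB, in 8 of the 9 chondrocyte markers. The same held for 4 of the 6 joint and superficial zone markers, and in neither list was any gene higher. Of all genes tested, 27.1% rose and 30.5% fell at day 45 against day 21. The shares were 27.2% and 27.1% at day 30 against day 21, and 27.6% and 28.7% at day 45 against day 30. For 27.5% of all genes the later change was called lower than the earlier. The marker lists were chosen with earlier results of these data known. The part of these cell types in the results was not tested.

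SFRP1 (ENSG00000104332; chr8:41261958-41309497, minus strand) was 72.3, 78.6, 92.7 and 91.7 CPM at day 21, 63.7, 60.1, 54.6, 47.4 and 42.2 CPM at day 30, and 61.9, 50.9, 49.1, 62.7 and 50.3 CPM at day 45. Both later days, which overlapped, lay below day 21, and within day 30 replicates 1 and 2 lay above replicates 3 to 5. The log2 fold change was -0.65 ± 0.13 (SE) at day 30 against day 21 and -0.61 ± 0.13 (SE) at day 45 against day 21 (edgeR adjusted p = 0.0003491 and 0.0004819). At day 45 against day 30 it was 0.04 ± 0.12 (SE; edgeR adjusted p = 0.8068). SFRP1 has the longest transcripts of the members, and with a per-library offset for effective length its change at day 30 against day 21 was -0.32 (edgeR adjusted p = 0.0123).

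DKK3 (ENSG00000050165; chr11:11963106-12009769, minus strand) was among the more even members. It had 148, 138, 121 and 143 CPM at day 21, 97.8, 90.3, 123, 112 and 107 CPM at day 30, and 112, 100, 86.1, 92.5 and 93.7 CPM at day 45. It fell 1.301-fold at day 30 against day 21 although day 30 replicate 3 lay above day 21 replicate 3, and 1.422-fold at day 45 against day 21 with no overlap (edgeR adjusted p = 0.005223 and 0.0004455). At day 45 against day 30 the log2 fold change was -0.13 ± 0.10 (SE; edgeR adjusted p = 0.2776). On the log2(TPM + 1) scale, where the median of all genes was -0.34 for day 45 against day 21, DKK3 changed by -0.95 and SFRP1 by -1.02.

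SFRP4 (ENSG00000106483; chr7:37905932-38025695, minus strand) did not pass the filter: it had 1 or 2 counts per library at day 21, 0 to 2 at day 30, then 0 to 4 at day 45. It overlaps EPDR1 on the opposite strand, which had 49 to 281 counts, and the library kit does not mark strand, so reads of the overlap cannot be told apart. The same holds for WNT5B and FBXL14 (38 to 251 counts). DKK1, WNT5A and WNT11 also overlap antisense genes, none of which exceeded 24 counts in a library.

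Among the ligands, WNT5B (ENSG00000111186; chr12:1529891-1647243, plus strand) rose in both intervals. It had 12.1, 12.4, 11.7 and 12.3 CPM at day 21, 21.9, 24.1, 31.3, 25.4 and 22.9 CPM at day 30, and 39.7, 32.9, 38.3, 35.1 and 38.7 CPM at day 45. No 2 days overlapped. The log2 fold change was 1.05 ± 0.11 (SE) at day 30 against day 21, 0.56 ± 0.10 (SE) at day 45 against day 30 and 1.61 ± 0.11 (SE) at day 45 against day 21 (edgeR adjusted p = 4.059e-07, 0.0001355 and 1.142e-09). Over the whole course 5.43% of genes rose more. On the log2(TPM + 1) scale the rise at day 30 against day 21 was 0.45 (limma adjusted p = 0.00153).

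WNT5A (ENSG00000114251; chr3:55465715-55490539, minus strand) was not called between any days. Its level was 28.0, 28.1, 30.7 and 28.1 CPM at day 21, 39.8, 46.7, 18.6, 22.7 and 18.5 CPM at day 30, and 28.2, 24.2, 31.2, 28.3 and 25.8 CPM at day 45. Day 30 fell into 2 sets: replicates 1 and 2 lay above every library of the other days, and replicates 3 to 5 below. The log2 fold changes were -0.06 ± 0.22 (SE) at day 45 against day 21, 0.03 ± 0.22 (SE) at day 30 against day 21 and -0.09 ± 0.21 (SE) at day 45 against day 30 (edgeR adjusted p = 0.8308, 0.9331 and 0.7458). The split follows the length profile of the libraries, and WNT5A transcripts are long, with an effective length of 3165.23 bases in day 21 replicate 1, second to the 4250.51 bases of SFRP1. Whether that profile caused the split was not tested. A fit with the per-library offset for effective length was run, and there WNT5A changed by 0.017 at day 45 against day 21 (edgeR adjusted p = 0.941). Its values with that offset for day 45 against day 30 and for the later minus the earlier change are given at the end. With replicates 3 to 5 left out, WNT5A was higher at day 30 than at day 21 (log2 fold change 0.58, edgeR adjusted p = 0.000474) and lower at day 45 than at day 30 (-0.66, edgeR adjusted p = 0.000191). It was lower at day 30 than at day 21 on the log2(TPM + 1) scale (-0.88, limma adjusted p = 0.013).

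WNT11 (ENSG00000085741; chr11:76186325-76210736, minus strand), which acts in cell movements of the early embryo, was low and variable. It had 5.36, 3.75, 6.36 and 5.38 CPM at day 21, 3.06, 4.61, 4.82, 4.91 and 5.11 CPM at day 30, and 7.18, 5.40, 4.41, 4.53 and 9.38 CPM at day 45. All 3 days overlapped. The log2 fold change was 0.25 ± 0.22 (SE) at day 45 against day 21 and -0.21 ± 0.23 (SE) at day 30 against day 21 (edgeR adjusted p = 0.3621 and 0.4389). At day 45 against day 30 it was 0.46 ± 0.22 (SE; edgeR adjusted p = 0.07915), and it passed the threshold with the length offset (0.67, edgeR adjusted p = 0.0103), on the log2(TPM + 1) scale (0.66, limma adjusted p = 0.0116) and without day 45 replicate 3 or 4 (0.56 and 0.55, edgeR adjusted p = 0.0398 and 0.0451).

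**Figure D2:**
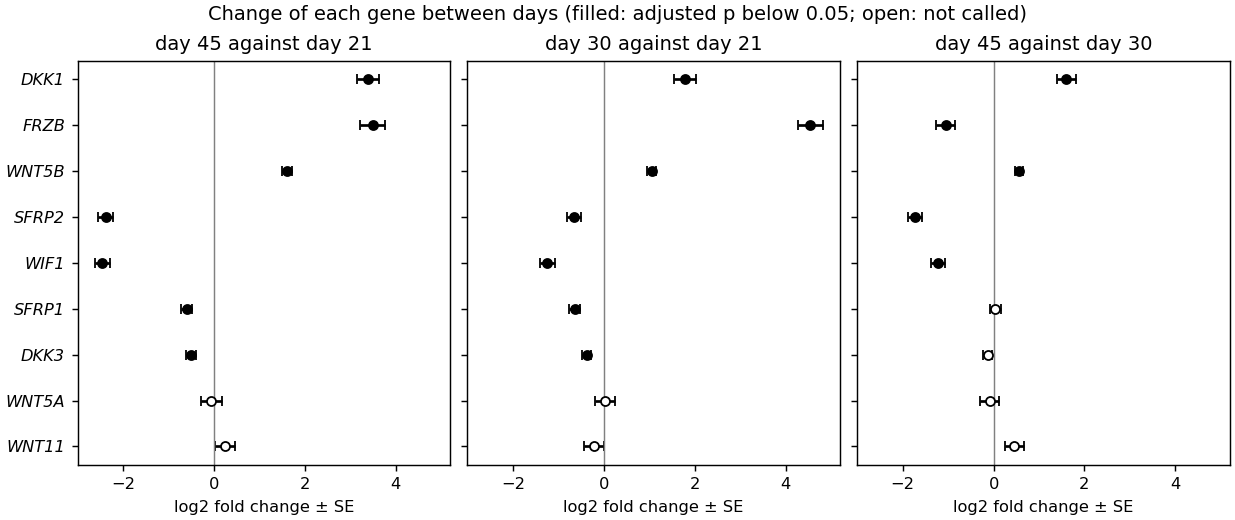
Log2 fold change with its SE (horizontal bars) of each gene in the 3 comparisons of days, with filled points for an edgeR adjusted p below 0.05. FRZB changes sign between the intervals, with 4.55 at day 30 against day 21 and -1.05 at day 45 against day 30, while DKK1 and WNT5B lie right of 0 and SFRP2 and WIF1 left of 0 in all 3 panels.

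By interval, 3 members rose (DKK1, FRZB, WNT5B) and 4 fell (SFRP1, SFRP2, WIF1, DKK3) at day 30 against day 21, where 54.4% of all genes were called (27.2% up, 27.1% down). For 6 of these 7 the libraries did not overlap, and 42.4% of all genes had no overlap. At day 45 against day 30, 2 rose (DKK1, WNT5B) and 3 fell (FRZB, SFRP2, WIF1), with 56.3% of all genes called (27.6% up, 28.7% down). None of these 5 overlapped, where 38.4% of all genes did not. The later change differed from the earlier for 4 members, 1 upward and 3 downward, against 52.7% of all genes (25.3% up, 27.5% down). Of these, FRZB kept its call under every alternative run. SFRP1 (0.68 ± 0.21, SE; edgeR adjusted p = 0.01252) and SFRP2 (-1.08 ± 0.26, SE; edgeR adjusted p = 0.002193) were not called without day 30 replicates 3 to 5, at 0.26 and -0.40, nor with day 45 replicate 1 placed at day 30, at 0.56 and -0.60 (edgeR adjusted p = 0.0507 and 0.377). With the length offset the SFRP1 difference was 0.10 (edgeR adjusted p = 0.643), or 0.05 with the replicate block added (edgeR adjusted p = 0.815). The SFRP2 difference on the log2(TPM + 1) and log2(TPM + 0.1) scales was -0.54 and -0.56 (limma adjusted p = 0.0748 and 0.0713). The difference for WNT5B (-0.49 ± 0.17, SE; edgeR adjusted p = 0.02334) was likewise lost without day 30 replicates 3 to 5 (-0.24), without day 30 replicate 3 alone (-0.31, edgeR adjusted p = 0.1), with the length offset (-0.23) and without the filter (-0.39), and had the opposite sign on the log2(TPM + 1) scale (0.19). Members that were not called here gained a call in places: DKK3 on the log2(TPM + 1) scale (0.61, limma adjusted p = 0.00149) and without day 30 replicates 3 to 5 (0.59, edgeR adjusted p = 0.0443), and WNT11 on that scale (1.05, limma adjusted p = 0.0191) and with the length offset (1.05, edgeR adjusted p = 0.0256). WNT5A was called in opposite directions, at 1.33 on the log2(TPM + 1) scale (limma adjusted p = 0.0246) and -1.25 without day 30 replicates 3 to 5 (edgeR adjusted p = 0.000247).

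Per transcript length, the order of the antagonists changed. At day 21 SFRP2 averaged 277 TPM, followed by DKK3 (123 TPM), WIF1 (86.2 TPM) and SFRP1 (41.0 TPM), with DKK1 at 2.34 and FRZB at 0.685 TPM, and none of these ranges overlapped. At day 45 DKK3 was highest (63.4 TPM), above SFRP2 (39.0 TPM), and SFRP1 (19.6 TPM), DKK1 (16.5 TPM) and WIF1 (12.8 TPM) followed with ranges that overlapped from one gene to the next. FRZB was at 11.9 TPM at day 30 and 5.71 TPM at day 45.

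The summed TPM of the 7 antagonists was 494.11 to 551.87 at day 21, 237.47 to 293.05 at day 30, then 142.8 to 175.08 at day 45. SFRP2 made up 49.91% to 55.86% of that sum at day 21, 43.02% to 53.14% at day 30, then 18.03% to 30.44% at day 45. The share of DKK3 was 20.3% to 25.31%, 26.23% to 29.67% and 38.42% to 43.95% at the 3 days, although DKK3 itself fell. DKK1 contributed 0.2791% to 0.7265% at day 21, 1.471% to 2.666% at day 30, then 7.827% to 14.09% at day 45. TPM is a share of all transcripts of a library, and most genes were lower on this scale at later days: 2140 genes were higher and 8720 lower at day 45 against day 21 by limma on log2(TPM + 1), where edgeR on counts gave 4836 and 5448. At day 30 against day 21 the split was 1788 higher and 9032 lower on the TPM scale, against 4858 and 4838 on counts.

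**Figure D3:**
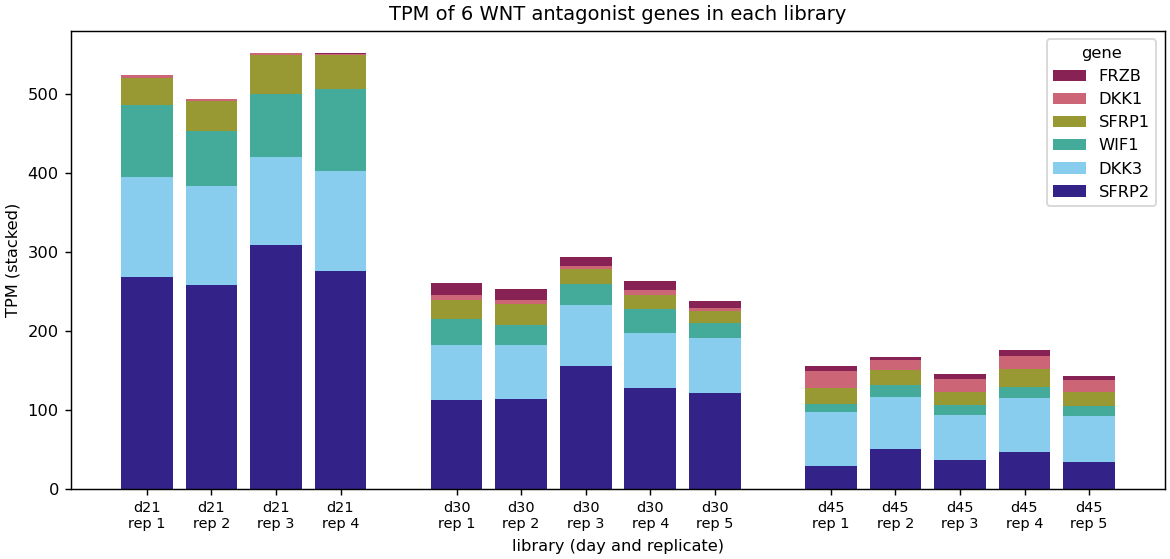
Stacked TPM of 6 antagonist genes in each library, grouped by day from day 21 to day 45 (SFRP4, near 0, is left out). The bars shrink from about the 494.11 to 551.87 TPM of day 21 to the 142.8 to 175.08 TPM of day 45, mostly through SFRP2, while the DKK1 share becomes visible at day 45.

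For the ligands, the summed TPM was 35.85 to 38.36 at day 21, 28.2 to 42.69 at day 30, then 48.28 to 60.42 at day 45. WNT5B and WNT5A were level at day 21, with a WNT5B to WNT5A ratio of TPM of 0.8312 to 1.238. At day 30 the ratio was 1.626 and 1.582 in replicates 1 and 2, and 5.6, 3.635 and 4.027 in replicates 3 to 5. At day 45 it was 2.556 to 3.752, above every day 21 library. WNT11 was the lowest ligand on average at each day, with 6.68, 4.78 and 8.47 TPM.

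**Figure D4:**
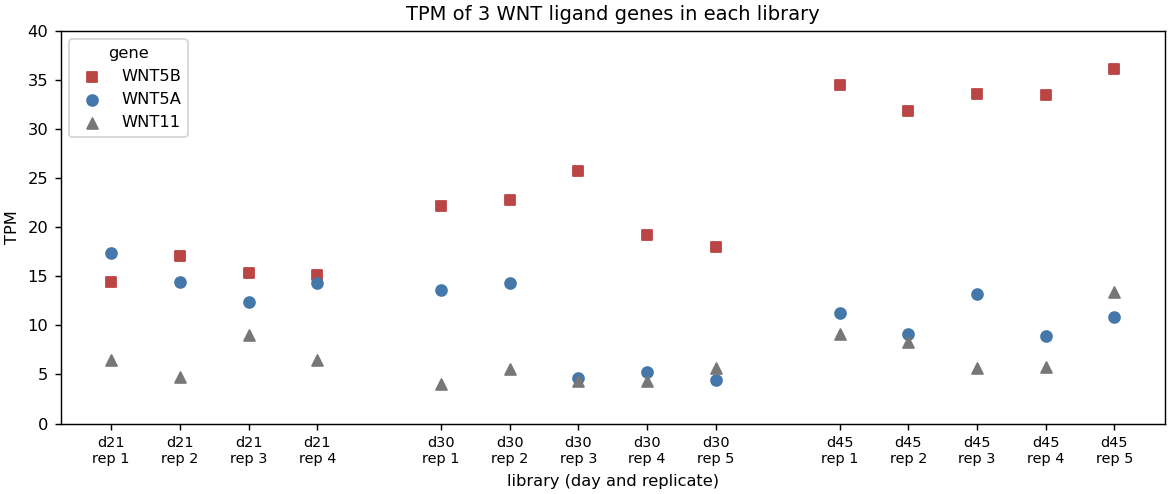
TPM of WNT5B (squares), WNT5A (circles) and WNT11 (triangles) in each library, by day. WNT5B averages 15.5 TPM at day 21, 21.6 TPM at day 30 and 33.9 TPM at day 45, and in day 30 replicates 3 to 5 WNT5A is at 4.48 to 5.29 TPM, level with WNT11.

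The genes whose profiles over the 14 libraries were most like each member were found by the mean absolute difference of centred log2 CPM among 9134 genes. For FRZB they were PYGM, the muscle glycogen phosphorylase (0.306), and SMIM5 (0.354), where the median over all genes was 1.642. Nearest to DKK1 were GADD45A, a growth arrest gene (0.22), and MXI1, a MYC antagonist (0.235; median 1.138). SFRP2 was followed most closely by OLFML3 (0.145) and C1QTNF1 (0.148; median 1.004), WIF1 by the adhesion gene CADM1 (0.12) and SAMD5 (0.177; median 0.938), and WNT5B by WBP2 (0.091) and CTDSPL (0.098; median 0.595). The flatter members had close neighbours of small amplitude: HIVEP3 (0.108) and TEX10 (0.11) for SFRP1, ATN1 (0.069) and APBB1 (0.07) for DKK3, PRKG1 (0.128) and PLAG1 (0.137) for WNT5A, and SMTN (0.19) and PITPNM1 (0.203) for WNT11. These profiles share libraries and their depth, so the likeness is a description.

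Other genes of the pathway were read from lists by role, for day 45 against day 21. In that comparison 57.7% of all genes tested were called, 27.1% up and 30.5% down (median log2 fold change -0.05). The counts of calls here and in the lists below stand beside those shares, and no list was tested as a set. Of 12 other secreted or membrane antagonists, 7 passed the filter, of which 3 rose and 4 fell (median log2 fold change -1.27). SFRP5, a frizzled-related gene outside the 10, was more abundant than any of them, with 621, 331 and 188 TPM on average at days 21, 30 and 45, and it fell by 1.27 ± 0.17 on the log2 scale at day 45 against day 21 (SE; edgeR adjusted p = 4.671e-06). KREMEN1, a receptor through which DKK1 acts, rose by 1.13 ± 0.13 (SE; edgeR adjusted p = 6.667e-07), as DKK1 did. SOSTDC1 fell by 3.05 ± 0.34 (SE), with 0.246 CPM on average at day 45, against 2.09 CPM at day 21. DRAXIN fell by 2.41 ± 0.33 (SE), with 0.400 CPM at day 45, against 2.14 CPM at day 21.

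Of 16 other ligands, 6 passed the filter, of which 2 rose, 1 fell and 3 were not called (median 0.31). WNT4 had 1.95 CPM at day 21, 11.2 CPM at day 30 and 3.68 CPM at day 45, a peak at the same day as FRZB, with a later minus earlier difference of -4.12 ± 0.38 (SE; edgeR adjusted p = 4.091e-07). Its rise over the whole course (0.92 ± 0.25, SE; edgeR adjusted p = 0.004177) was not called on the log2(TPM + 1) scale (0.11, limma adjusted p = 0.557). WNT16 lay between 0 and 0.099 CPM in the libraries of days 21 and 30 and between 1.16 and 9.07 CPM at day 45. WNT9A fell by 1.62 ± 0.28 (SE), and WNT10B was not called over the whole course (0.67 ± 0.31, SE; edgeR adjusted p = 0.07674). The later change of WNT10B was called lower than its earlier.

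Receptors and co-receptors moved unevenly. Of 10 frizzled genes 2 rose and 5 fell (median -0.46), among them FZD4 (-2.35 ± 0.14, SE), FZD2 (-1.51 ± 0.12, SE) and FZD1 (-1.19 ± 0.12, SE). FZD3 also fell (-0.75 ± 0.20, SE), a call lost on the log2(TPM + 1) scale. Among 7 co-receptors 2 rose and 2 fell (median 0.16): LRP5, a co-receptor bound by DKK1, fell by 1.78 ± 0.14 (SE) and ROR1 by 1.06 ± 0.19 (SE), while ROR2, a receptor of WNT5A, rose by 0.82 ± 0.15 (SE) and LRP4 by 0.80 ± 0.14 (SE). On the log2(TPM + 1) scale ROR2 (0.35, limma adjusted p = 0.0668) and LRP4 (0.10, limma adjusted p = 0.538) were not called. LRP4 first fell, by 1.06 at day 30 against day 21, and its later change was above its earlier by 2.917. With day 45 replicate 1 placed at day 30 these values were -0.438 and 1.615, neither called. In that run the LRP4 rise at day 45 against day 21 was 0.738 and also not called (edgeR adjusted p = 0.162). All 5 R-spondin and R-spondin receptor genes tested of 6 fell (median -1.34): LGR6 by 5.18 ± 0.18, RSPO3 by 1.78 ± 0.19, LGR4 by 1.09 ± 0.18 and RSPO2 by 0.90 ± 0.20 (SE). R-spondins enhance WNT signalling at the receptor. LGR6 had 41.4, 8.75 and 1.14 CPM at days 21, 30 and 45. By limma on log2(TPM + 1), 0 frizzled genes were called higher and 7 lower, and 0 co-receptors higher and 4 lower.

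WLS, which carries WNT proteins to the cell surface, fell by 1.05 ± 0.10 (SE), and PORCN, which attaches their lipid, was not called (0.10 ± 0.12, SE). Of 16 beta-catenin pathway transducers 4 rose and 5 fell (median 0.11), with BCL9 at -1.34 ± 0.10 and TCF7L1 at -0.93 ± 0.12 among the falls, and DVL1 at 0.96 ± 0.12 and CSNK1A1 at 0.79 ± 0.12 (SE) among the rises. On the log2(TPM + 1) scale the split was 1 higher and 9 lower, and CSNK1A1 was not called (0.29, limma adjusted p = 0.108). GSK3B, the kinase that marks beta-catenin for destruction, was not called over the whole course (0.14 ± 0.16, SE) but differed between intervals by 2.0 ± 0.27 (SE; edgeR adjusted p = 1.737e-05). Of 9 beta-catenin target genes tested, 1 rose and 4 fell (median -0.49): CCND1, encoding cyclin D1, rose by 2.27 ± 0.15, and NKD2 (-4.01 ± 0.49), TCF7 (-2.47 ± 0.18) and TNFRSF19 (-2.42 ± 0.14, SE) fell. ZNRF3 and NKD1, feedback inhibitors of the pathway, were not called over the whole course (0.11 ± 0.14 and 0.28 ± 0.12, SE; edgeR adjusted p = 0.4947 and 0.0502). Both were called for the later minus the earlier change. NKD1 changed by -0.69 at day 30 against day 21 and by 0.97 at day 45 against day 30, a difference of 1.66. With the length offset these values were 0.14, 0.19 and 0.05, none called. Of 10 planar polarity genes 3 rose and 4 fell (median -0.04), with VANGL2 at -2.29 ± 0.21, CELSR2 at -1.50 ± 0.16, VANGL1 at -0.67 ± 0.11 and PRICKLE2 at 1.31 ± 0.17 (SE). CELSR1 was not called over the whole course (-0.24 ± 0.18, SE), but its later change was above its earlier, as for VANGL1. By limma on log2(TPM + 1), 1 planar polarity gene was higher and 4 were lower.

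**Figure D5:**
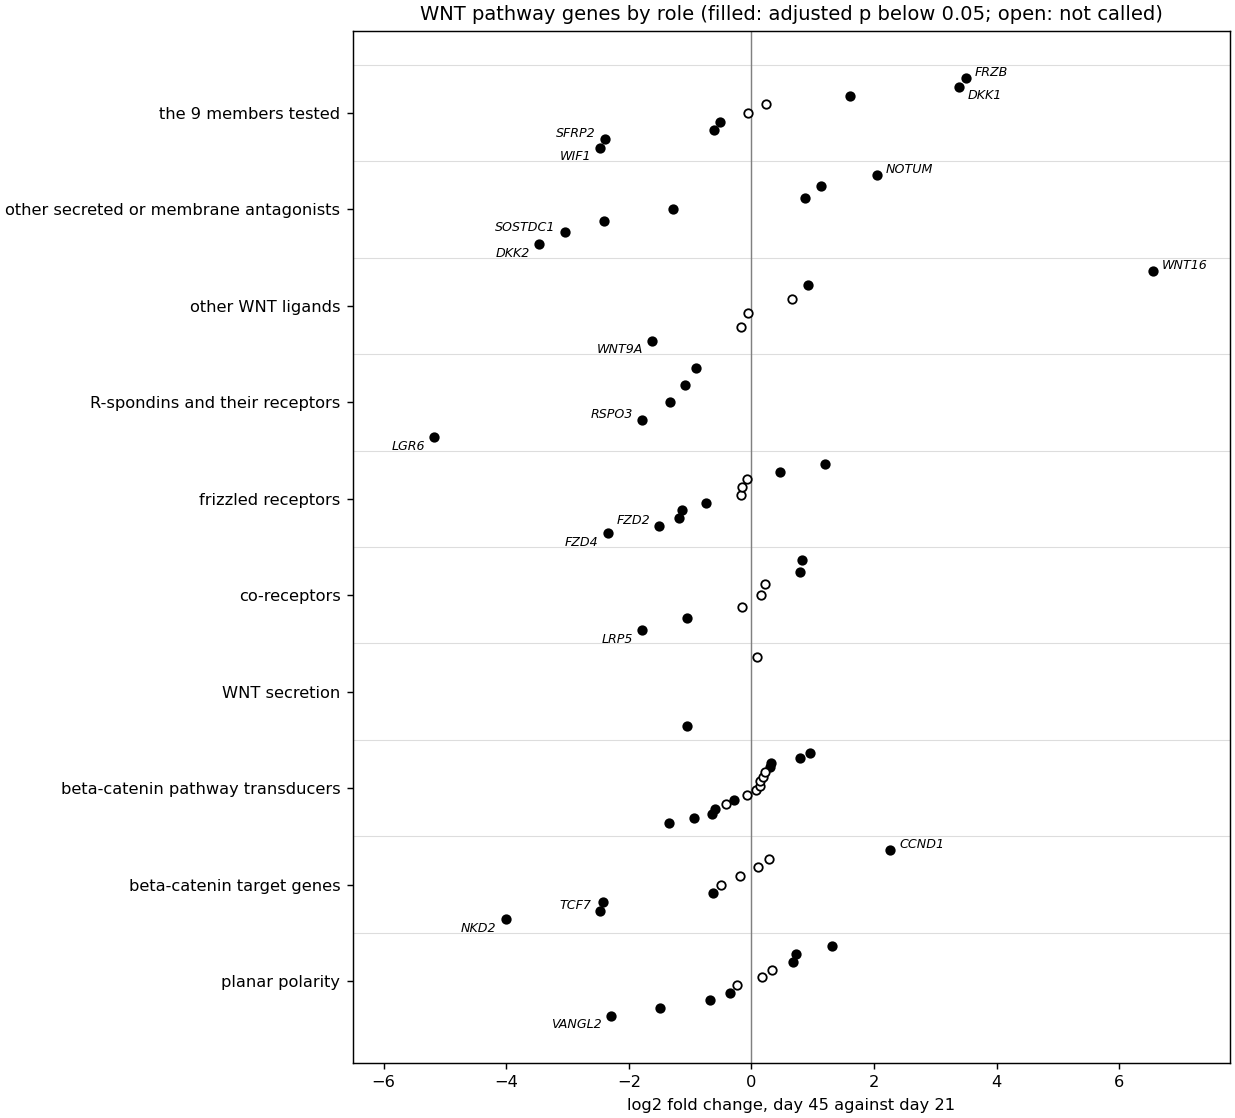
Log2 fold change at day 45 against day 21 of WNT pathway genes by role, 1 point per tested gene, filled where the edgeR adjusted p was below 0.05, with the largest changes named. The 9 tested members spread from WIF1 at -2.47 to FRZB at 3.49, and the R-spondin group lies wholly left of 0, down to LGR6 at -5.18.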

How the data were processed

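The submitters' processing notes name STAR 2.4.2a, RSEM 1.2.25 and the build GRCh38. Per the labels' protocols, an RNeasy micro kit and the TruSeq RNA Library Prep Kit v2 were used. No annotation release is stated in the labels or files. Per the file headers, each table holds an effective length, an expected count, TPM and FPKM per gene, and FPKM was not used. The deposited expected counts were rounded to whole numbers for testing. The deposited TPM values were used to compare levels between genes. All log2 values were computed here from the deposited counts or TPM.

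A symbol was found for 60333 of 60587 gene identifiers, and GENCODE 29, the source of gene coordinates, held 58400. Genes were filtered with filterByExpr by day, leaving 17838, and scaled by TMM. A model with day means for the 14 libraries was fitted with edgeR 4.0.16 (R 4.3.3) and tested with the quasi-likelihood F-test. Benjamini-Hochberg adjustment ran over all genes tested, with a threshold of 0.05. The SE is the log2 fold change divided by the square root of F. The fit was also run on simulated counts with the same relative spread for every gene and no length profile, unlike these data. That run does not measure how often calls are wrong in these data. Alternatives were DESeq2 1.42.0 as a test and for size factors, limma 3.58.1 on log2(TPM + 1) and log2(TPM + 0.1), no low-count filter, at least 1 CPM in 4 libraries, only the days compared, a length offset, a replicate block, leaving out each library, leaving out day 30 replicates 3 to 5, and day 45 replicate 1 placed at day 30.

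The 10 members and all gene lists were chosen with earlier results of these data known. From each list of other pathway genes, up to 4 genes with the smallest adjusted p for day 45 against day 21 and up to 2 for the later minus the earlier change were named. For likeness the 2 nearest genes with at least 10 CPM on average were named (prior count 2). Deviations from the day means were no more alike between libraries with the same replicate number than between others, so the number was not used for pairing. Promoter sequences came from RefSeq tables of GRCh38.p14, in which DKK3 and WNT11 had no entry; the promoter of SFRP1 was not used here. The precision of low values is limited by counting, and PCR copies were not removed.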

Additional observations from a re-analysis of the deposited data

Results flagged for a closer look

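In 27 groups of 4 or 5 libraries (9 genes at 3 days), 3 had a library far from the rest by Dixon's test, and chance flags about 5% of groups. DKK1 at day 45 was highest in replicate 1, at 15.5 CPM, where the next library had 10.1 CPM and the lowest 9.01 CPM, so that the gap took 0.828 of the range and was above Dixon's critical value. This is the library whose title and treatment label name different days. WNT5A at day 21 was highest in replicate 3, at 30.7 CPM, with the other libraries between 28.0 and 28.1 CPM (0.952 of the range). WNT11 at day 30 was lowest in replicate 1, at 3.06 CPM, with the others between 4.61 and 5.11 CPM (0.754 of the range).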

How the results depend on the processing

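The 7 members called at day 45 against day 21 and the 7 called at day 30 against day 21 kept call and direction under all 26 alternatives run for each. Leaving out each library gave 9335 to 10460 genes called at day 45 against day 21, 8768 to 9938 at day 30 against day 21, 9031 to 10235 at day 45 against day 30 and 8262 to 9623 for the later minus the earlier change. Members called were then 7, 7, 5 to 6 and 3 to 4. With day 45 replicate 1 placed at day 30, 6466 genes were called at day 45 against day 30 in place of 10051, and 2 members for the later minus the earlier change in place of 4. Without day 30 replicates 3 to 5, 5659 genes were called for that difference in place of 9404. The cause was not tested.

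Values that changed sign, on the log2 scale, were mostly close to 0. For WNT5A they were, at day 45 against day 21, 0.028 with the replicate block, 0.093 with the block and the length offset and 0.017 with the offset alone. At day 30 against day 21, WNT5A was -0.88 and -0.97 on the TPM + 1 and TPM + 0.1 scales, -0.034 without the filter, and -0.20 to 0.15 with each library left out. At day 45 against day 30, it was 0.45 and 0.52 on the TPM scales, and -0.21 to 0.14 with each library left out. There WNT5A kept its sign at -0.35 with the offset and at -0.66 without day 30 replicates 3 to 5 (a gained call). SFRP1 at day 45 against day 30 was -0.018 on both TPM scales, -0.22 with the offset (with or without the block), -0.046 with day 45 replicate 1 at day 30, -0.18 without day 30 replicates 3 to 5, and -0.021 to 0.107 with each library left out. DKK3 in that comparison was 0.032 without day 30 replicates 3 to 5.

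For the later minus the earlier change, DKK1 was 0.37 and 0.23 on the TPM scales, 0.38 with the offset, 0.26 with the block and offset, and -0.43 to 0.02 with each library left out. WNT5A was 1.33 and 1.49 on the TPM scales (both called), and -0.37 to 0.34 with each library left out. It kept its sign at -0.72 with the offset and -1.25 without day 30 replicates 3 to 5 (both called). WNT5B was 0.19 on both TPM scales. WIF1 was -0.036 with the 1 CPM filter, -0.033 with the block, and -0.12 to 0.12 with each library left out. It kept its sign at 0.64 on the TPM + 1 scale (called).

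Replicate numbers did not pair the libraries: deviations of same-numbered libraries correlated at -0.251 to 0.116 (13 pairs) and of others at -0.224 to 0.231 (52 pairs). With the replicate block 9728, 8872, 9519 and 8632 genes were called in the 4 comparisons, and 7, 7, 5 and 4 members. SFRP4 and, at day 21, FRZB and DKK1 are limited by low counts.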
